A study of Mus musculus with 3 samples.

Results

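The ribosomal protein genes were taken as all protein-coding genes of GENCODE vM21 on mm10 whose symbol is Rpl or Rps followed by a digit, or is Rplp0, Rplp1, Rplp2 or Rpsa. Rps6k kinase genes and symbols with -ps or Gm were left out. This gave 86 of 21938 protein-coding genes, of which 52 have large subunit symbols and 34 have small subunit symbols. Of the 86, 77 encode proteins of the standard cytoplasmic ribosome. The other 9 are paralogs or lookalikes, namely Rpl3l, Rpl7l1, Rpl10l, Rpl22l1, Rpl36al, Rpl39l, Rps27l, Rps27rt and Rps19bp1, the last of which encodes a protein that binds Rps19.

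HBO1 ChIP-seq was performed in mouse embryonic stem cells (ESCs) that were Oct1 deficient, that is, without the Oct4 paralog encoded by Pou2f1. All samples carried this deficiency and were grown with 1 µM of the MEK inhibitor labelled PD03259010, 3 µM of the GSK3b inhibitor CHIR99021 and ascorbic acid, so no comparison with Oct1-sufficient or untreated cells was possible. The series holds 2 ChIP samples and 1 sample of input chromatin, which was sonicated but not immunoprecipitated, all from cells fixed with 1% formaldehyde for 10 min. The labels give the Oct1 deficient genotype for every sample and were followed. The paper's methods and discussion also name Oct1 deficient ESCs for the HBO1 ChIP-seq. A table title in the paper names WT ESCs instead, and the genotype was not tested here. The second ChIP sample is titled HBO1 while its antibody label reads HBO2, it was treated as HBO1, and 1 peak list stands for both ChIP samples, so no value has a spread between replicates and no test was made.

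Ribosomal proteins assemble with ribosomal RNA into the large and the small subunit, which together translate every cellular mRNA. Their genes are transcribed at high levels in growing cells, and most of their mRNAs begin with a C followed by a run of pyrimidines, the 5′ terminal oligopyrimidine (TOP) tract, through which translation is tied to mTOR signaling. HBO1, encoded by Kat7, is the catalytic subunit of histone acetyltransferase complexes that contain Jade or Brpf scaffold proteins and are found at the promoters of active genes. RNA and histone acetylation were not measured in these files.

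The sequences at which several of these mRNAs begin are given because the tract is shared by members with and without an HBO1 peak. Each line gives 30 bases of the coding strand from GRCm38, the assembly that mm10 names, with 10 bases before the tract in lower case and the tract in capitals.

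Rps27: gctttcgctcCTTTCCggcggtgacgacct

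Rps27rt: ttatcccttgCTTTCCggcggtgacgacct

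Rps19: ccgtcgttccCTTTCCCCTggctggcagcg

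Rps25: accgggcttcCTTTTTTTCCgacatcttag

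Rpl3: ctcctggtcgCTCTCTatctgcggcgtgtg

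Rpl36a: tagcctctctCTTTCCgagctgctagcgct

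Rpl7: cgccacctttCTCTCTTCTTTTCCggctgg

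Rpl30: ggagctccttCCTTTCTCgctccccggcca

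Rpl10: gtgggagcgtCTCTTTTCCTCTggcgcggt

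These windows lie at chr3:90213628-90213657 on the minus strand for Rps27, chr9:114982720-114982749 minus for Rps27rt, chr7:24884625-24884654 plus for Rps19 and chr9:44407686-44407715 plus for Rps25. They lie at chr15:80083335-80083364 minus for Rpl3, chrX:134585678-134585707 plus for Rpl36a, chr1:16104383-16104412 minus for Rpl7, chr15:34443203-34443232 minus for Rpl30 and chrX:74270847-74270876 plus for Rpl10. Rps27, Rps19, Rps25, Rpl3 and Rpl36a had an HBO1 peak at the promoter, while Rps27rt, Rpl7, Rpl30 and Rpl10 had none within 1 kb. Rps27 and Rps27rt were identical over all 20 bases from the start of the tract and shared 3 of the 10 bases before it. The Rps27 gene, with its peak, and its retrogene Rps27rt, without one, thus carried the same start sequence in different surroundings, with 31 and 2 read ends of input around the respective outermost TSS. The exon of Rps27rt held 0 input read ends. Whether reads could be placed and a peak called there was not tested.

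HBO1 peaks were found at nearly all ribosomal protein genes. A peak lay within 1 kb of any annotated transcription start site (TSS) of 75 of the 86 genes, which is 87.2% with an exact binomial 95% confidence interval of 78.3 to 93.4% that covers counting error only. Over all protein-coding genes the share was 21.7%, and over coding genes with the same GC content in the 1 kb around the TSS it was 21.6%, a difference of 65.6 percentage points. A TSS lay inside a peak for 62 of the 86 genes, against 10.9% of all protein-coding genes. The same held for the stronger peaks: a peak with a −log10 q of at least 10 was within 1 kb of 64 of the 86 genes, which is 74.4%, against 7.97% of all protein-coding genes and 7.41% of those of like GC.

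The share with a peak was high among the standard genes of both subunits. Of the standard ribosomal protein genes 72 of 77 had a peak, with 42 of 46 in the large subunit and 30 of 31 in the small subunit. Of the 9 paralogs and lookalikes 3 had one, or 33.3% with an exact binomial interval of 7.49 to 70.1%, which includes the 22.8% of like-GC genes. These were Rpl7l1, a paralog of Rpl7, with a fold enrichment of 3.95, Rpl36al with 2.45 and Rps27l with 2.21. Only Rpl7l1 exceeded 2.65, the median of coding genes with a peak weighted to the GC of all members with one. The 1 kb around its summit held 24 input read ends. Below 30 read ends the median fold of other coding genes with a peak was 4.67, above that of Rpl7l1. The fold enrichment is the authors' ratio of ChIP signal to local background at the summit of the peak. Of the 6 symbols with -ps that the annotation types as protein-coding, none had a peak, where 8.98% of like-GC genes had one and a count of 0 of 6 has an exact upper limit of 45.9%.

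The share with a peak was high at every promoter GC at which members were found. Among other coding genes the share with a peak rose from 9.99% in the third GC decile to 54.1% in the tenth, while no ribosomal protein gene had a lower GC than the third decile. Of the ribosomal protein genes 5 of 7 had a peak in the third decile, 8 of 10 in the fourth and 6 of 10 in the fifth, where other coding genes had 9.99%, 13.5% and 18.7%. In the sixth and seventh deciles, which held more members than any other, 19 of 21 and 20 of 21 had a peak, against 19.0% and 23.7%. All 12 members of the eighth decile, all 4 of the ninth and the 1 of the tenth had a peak, against 30.2%, 37.3% and 54.1%. The number of annotated start sites was higher in members, with a median of 6 against 3 in other coding genes. Among genes with 7 or more start sites 27 of 29 members and 38.6% of other coding genes had a peak, and among genes with a single one 3 of 5 members and 9.60% of other coding genes.

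**Figure D1:**
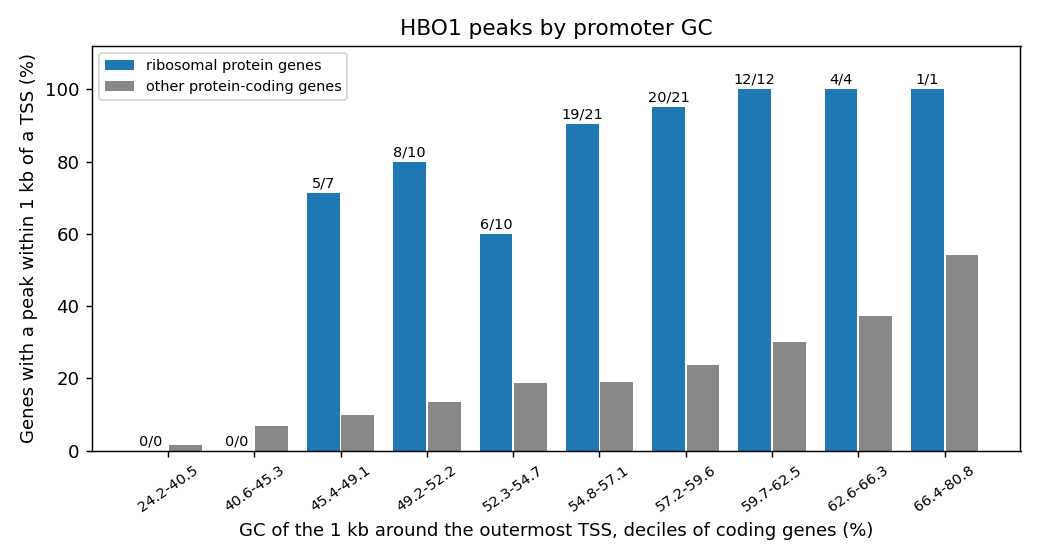
Share of genes with an HBO1 peak within 1 kb of a TSS (y axis, %) in deciles of GC content of the 1 kb around the outermost TSS (x axis, %), for ribosomal protein genes (blue, with the number with a peak over the number in the decile) and other protein-coding genes (grey). Members ran from 6 of 10 to all of a decile, where other coding genes ran from 9.99 to 54.1%.

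At the distance limit, the 3 members just inside 1 kb were Rpl41 at 606 bp, Rpl36 at 147 bp and Rps3a1 at 135 bp. The 3 just outside were Rpl10 at 1921 bp, Rps27rt at 3567 bp and Rpl3l at 4755 bp. The peak at Rpl41, the smallest protein of the ribosome, had its summit nearer to the TSS of Zc3h10, and that at Rpl12 was nearer to the TSS of Lrsam1. For 15 members the peak was also within 1 kb of the TSS of another coding gene, such as Rab13 at Rps27 or Med22 at Rpl7a, and for the other 60 it was not.

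Of the standard ribosomal protein genes 5 had no peak within 1 kb. Rpl10, a late-joining protein of the large subunit, had its nearest peak 1921 bp from a TSS, at chrX:74273758-74274146, which is past the 3′ end of the gene. The others had no peak in the region. The nearest peak was 186299 bp from Rpl30, 210033 bp from Rpl39, 295945 bp from Rpl7 and 545683 bp from Rps4x, the X-linked gene for a small subunit protein. The input in the 1 kb around their outermost TSS was 77 read ends at Rpl7, 50 at Rpl30, 30 at Rps4x, 29 at Rpl39 and 2 at Rpl10, against a median of 63.5 over all members, so input at Rpl7 was above that median and input at the other 4 below it. Rpl10, Rpl39 and Rps4x are on the X chromosome. Of the 4 members on that chromosome only Rpl36a had a peak, where 6.75% of all coding genes of the X chromosome and 11.7% of those of like GC had one. On the autosomes 74 of 82 members, or 90.2%, had a peak, beside 21.7% of protein-coding genes on all chromosomes.

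Among the paralogs without a peak, Rpl3l, which is expressed in muscle, was nearest to the peak past the 3′ end of Rps2. Rps27rt and Rps19bp1 had their nearest peaks at 3567 and 5192 bp. Rpl39l, Rpl22l1 and Rpl10l, of which Rpl39l and Rpl10l are known from the testis, were 43517, 70581 and 122718 bp from a peak.

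The peaks at ribosomal protein genes were also stronger than those at most genes with a peak. The peak nearest to a TSS had a median fold enrichment of 3.31 over the 75 genes, with a range of 1.91 to 11.0, where 64 of the 75 were above the median of 2.65 of like-GC coding genes with a peak. The median −log10 q was 17.1, with a range of 4.43 to 57.4 and 67 of the 75 above the like-GC median of 7.66. Peak width had a median of 568 bp against 411 bp, with 60 of 75 above. Among the 200 coding genes with the highest −log10 q there were 21 ribosomal protein genes, while these made up 75 of the 4764 coding genes with a peak.

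Among these nearest peaks the highest fold enrichment was at Rpl3, which encodes a large subunit protein near the peptidyl transferase center, with 11.0 at chr15:80080145-80080641. This peak is at an internal start site, and the 1 kb around its summit held 1 input read end. The peak over the full-length TSS, at chr15:80082861-80083492, reached a fold of 8.13 and a −log10 q of 63.3. The next highest values were in the small subunit. Rps27 had 7.12 at chr3:90213198-90213676, Rps15a had 6.26 at chr7:118115581-118116229 and Rps12 had 5.71 at chr10:23786657-23787234. Rpsa, the gene of the laminin receptor protein of the small subunit, had 5.44, Rps7 had 5.17, Rps25 had 4.79, and Rps29 and Rps2 each had 4.72. Rpl36a on the X chromosome, with 5.29, was the only other large subunit gene among the 10 highest. At Rps7 and Rpsa, too, the nearest peak was at an internal start site, and the peaks over their full-length TSSs had 2.46 and 4.93. The nearest peaks of these 2 genes had 0 and 18 input read ends around the summit. That of Rpl36a had 16, with a −log10 q of 9.74. Below 30 read ends the median fold of other coding genes with a peak was 4.67.

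Among the peaks nearest to any annotated TSS the highest −log10 q values were 57.4 at Rps12, 53.4 at Rps19, the gene most often mutated in Diamond-Blackfan anemia, 52.6 at Rps20, 44.6 at Rps15a and 40.0 at Rps27. These 5 are small subunit genes, but the peak over the full-length TSS of the large subunit gene Rpl3 reached 63.3, as given above, and the Rpsa peak over its full-length TSS reached 47.2. Among the widest peaks were those of Rpl36 with 3054 bp, which began 147 bp from the TSS and had its summit past the 3′ end of the gene, Rps2 with 1464 bp and Rpl41 with 1265 bp. The lowest fold enrichment of a nearest peak, 1.91, was at Rps15. The proteins of the ribosomal stalk differed among themselves, with 2.20 at Rplp0, 3.52 at Rplp2 and 4.51 at Rplp1. Rpl5 and Rpl11, whose proteins bind Mdm2 with 5S RNA, had 3.53 and 2.81. Rps6, the substrate of S6 kinase, had 2.73, and Rps27a, which encodes a ubiquitin fusion, had 2.79.

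**Figure D2:**
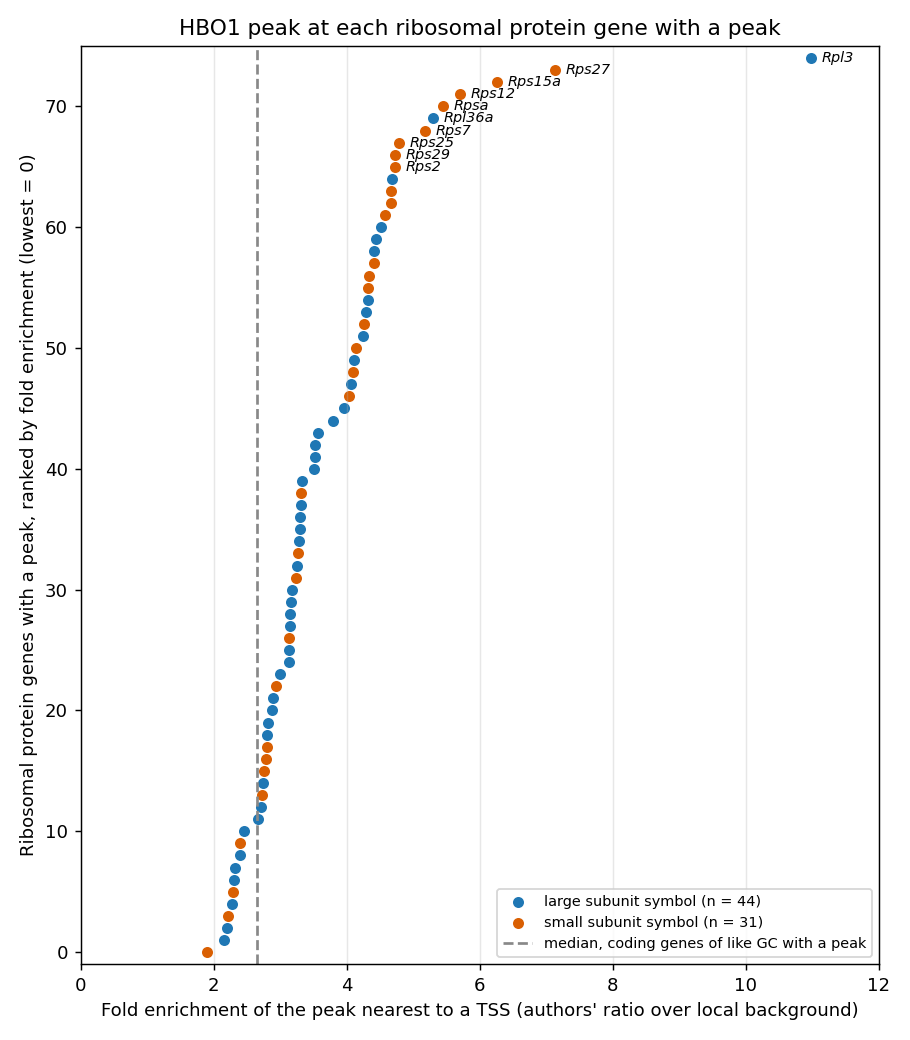
Fold enrichment (x axis, the authors' ratio over local background) of the HBO1 peak nearest to a TSS for each of the 75 ribosomal protein genes with a peak, ranked by it (y axis, with the 10 highest named), for large (blue) and small (orange) subunit symbols, with the median of like-GC coding genes with a peak as a dashed line at 2.65. All but 11 points are above the line, and 8 of the 10 highest are small subunit genes.

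Small subunit genes had higher values than large subunit genes. The median fold enrichment was 4.15 over 31 small subunit genes, with a range of 1.91 to 7.12, and 3.27 over 44 large subunit genes, with a range of 2.16 to 11.0, so the ranges overlap almost fully. A fold enrichment of at least 4 was found at 18 small and 11 large subunit genes. The like count in other coding genes with a peak is not given, so these counts compare the 2 subunits only. The median −log10 q was 21.7 and 15.4. The median GC was 57.2 and 56.9%, and the median input at the summit was 68 and 80 read ends per kb, whose part in the difference was not tested. Among other coding genes with a peak the median fold fell from 4.67 below 30 input read ends to 2.12 at 150 or more.

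The fold enrichment of ribosomal protein genes was above that of other genes in most classes of input. With 30 to 59 read ends of input within the 1 kb centered on the summit the median fold was 4.26 over 13 members and 2.84 over other coding genes with a peak. With 60 to 89 read ends it was 3.27 over 34 members and 2.52 over others, and with 90 to 149 it was 2.72 over 18 members and 2.35 over others. Below 30 read ends the 9 members had a lower median fold than others, 4.33 against 4.67, with a higher −log10 q, 9.74 against 6.98. Over the other 3 classes the median −log10 q of members was 17.3, 18.2 and 13.6, against 7.78, 7.89 and 8.12. Rpl34 alone exceeded 149 read ends. It was the only member on chromosome 3 between 100 and 140 Mb, a segment with raised input in these cells, and its summit held 244 input read ends, with a fold of 2.27 and a −log10 q of 18.9.

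**Figure D3:**
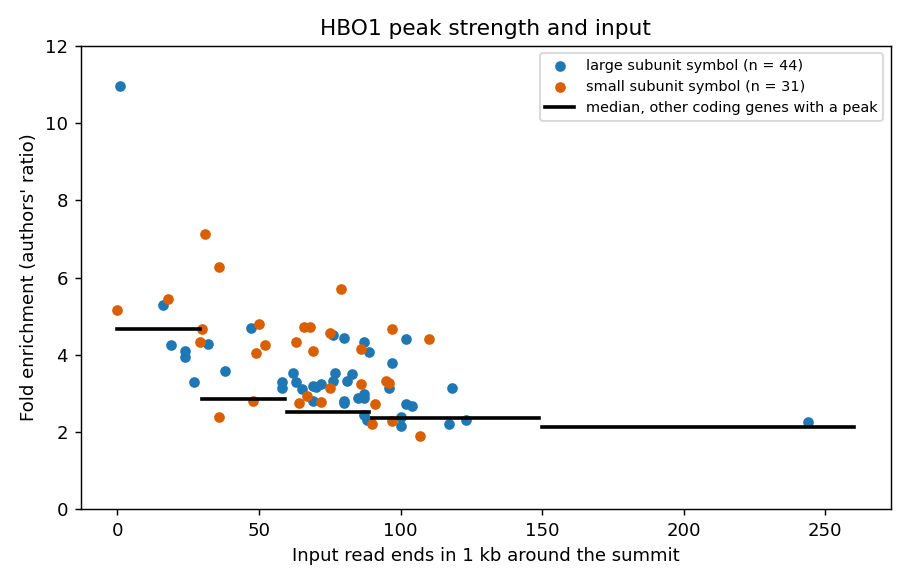
Fold enrichment (y axis) against the input within the 1 kb centered on the summit (x axis, read ends) for the 75 ribosomal protein genes with a peak, by subunit, with the median of other coding genes with a peak in each class of input as black lines. From 30 to 149 read ends the median of members is above the line in each class, and Rpl3 at 11.0 and Rpl34 at 244 read ends stand apart.

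Many ribosomal protein genes had several peaks. Of the 86, 27 had more than 1 peak within 1 kb of a TSS, which is 31.4%, against 3.15% of all protein-coding genes, 3.04% of those of like GC and 3.46% of those of like GC and number of start sites. Rpl3 had 5 such peaks, Rpl6, Rpsa and Rps18 had 4, and Rpl11, Rpl18, Rps14 and Rps19 had 3. The other 19 had 2. In all, 115 peaks were within 1 kb of a TSS of a member, which is 0.832% of the 13823 peaks.

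The additional peaks ran along the transcribed part of the genes. To separate them from the promoter, peaks were counted whose summit was in the gene and over 1 kb from every TSS of its full-length coding transcripts and from the coding TSSs of other genes. This was chosen after the values had been seen. Of the 86 members 29 had such a peak, which is 33.7%, against 13.7% of all protein-coding genes. Members are short, with a median of 3.33 kb against 17.6 kb in other coding genes, and long genes offer more room. Among coding genes of like length the share was 4.07%. In genes of 2 to 4 kb it was 11 of 41 members against 3.72% of other coding genes, in genes of 4 to 8 kb 11 of 24 against 4.16%, and in genes of 8 to 16 kb 4 of 7 against 7.20%. At Rpl3, Rpl6, Rps7 and Rpsa 1 of these peaks was also the one nearest to an annotated TSS, at internal start sites. All 29 of these members had a peak within 1 kb of a TSS, so that the share was 38.7% of the 75 members with one, against 28.6% of all other coding genes with one and 17.3% of those of like length.

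Peaks also lay past the 3′ end. A summit within 2 kb past the end of the gene, over 1 kb from coding TSSs, was found at 25 of the 86 members, or 29.1%, against 1.82% of all protein-coding genes and 2.02% of those of like length. At Rpl36 this is the same 3054 bp peak that was counted within 1 kb of its TSS. A peak of either kind was found at 41 members, or 47.7%, against 14.7% of all other coding genes and 5.57% of those of like length. RNA was not measured, so genes of like length could not be matched for expression.

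Rpl3 had the longest series. Measured from its full-length TSS, 9 peaks lay between the start and 7735 bp downstream, with fold enrichments of 8.13, 19.0, 8.87, 11.0, 7.56, 5.38, 6.57, 3.91 and 6.996 in the order of transcription. The first 3 of these had −log10 q values of 63.3, 61.9 and 59.5. The peak with 19.0 was at 663 to 1173 bp downstream, and the last 2 were past the 3′ end. Rpl6 and Rpsa each had 5 peaks from the start to past the 3′ end. In Rpsa the fold enrichments were 4.93 at the start, then 6.72, 5.44 and 4.76 in the gene and 5.21 past its end, with the highest −log10 q, 47.2, at the start. In Rps19 they were 4.41 at the start, 8.08 and 8.22 in the gene and 5.60 past the end, with −log10 q values of 53.4, 25.8, 28.2 and 6.83. In Rpl11 the fold enrichment rose from 2.81 at the start through 5.04 and 5.67 to 10.2 with the summit 4796 bp downstream.

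**Figure D4:**
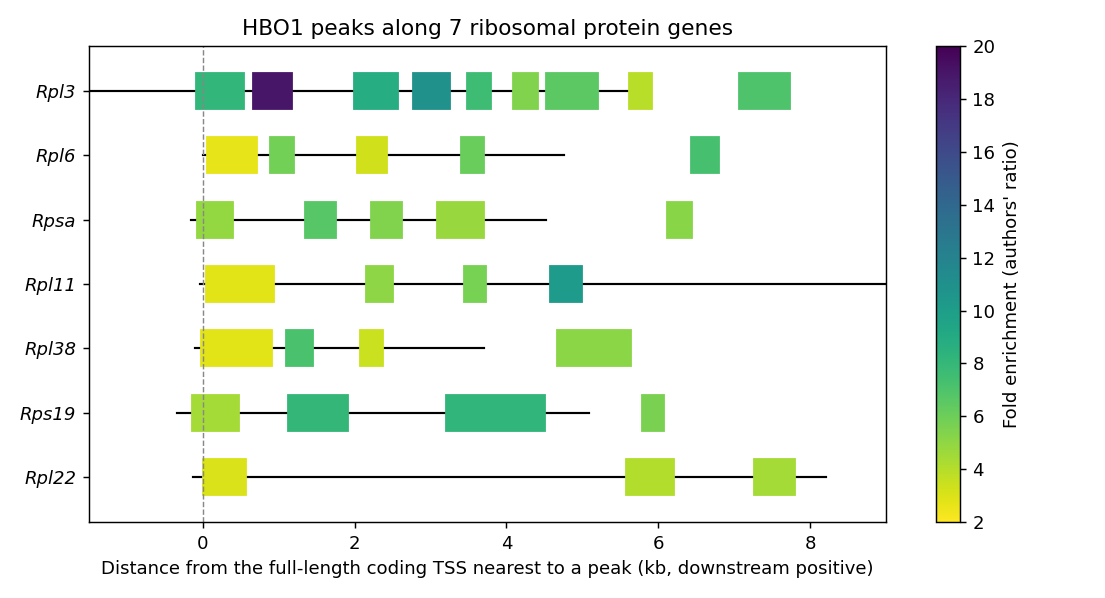
HBO1 peaks (boxes, colored by fold enrichment) along the 7 ribosomal protein genes with more than 1 peak in the gene over 1 kb from full-length coding TSSs, with distance from the full-length TSS nearest to a peak in kb (x axis) and the annotated extent of each gene as a line, drawn to at most 1.5 kb upstream and 9 kb downstream. Rpl3 holds 9 boxes, the second of which has the highest fold enrichment of 19.0.

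Over all members there were 41 such peaks in the genes, with 26 summits in exons and 15 in introns. The same count in other coding genes is not given. The median fold enrichment was 5.44, with a range of 2.04 to 11.0, and the median −log10 q was 14.9, with a range of 2.87 to 59.5. The 28 peaks past the 3′ end had a median fold enrichment of 5.17 and a median −log10 q of 13.9. Among them, the peak past Rps2 at chr17:24722632-24723065 reached a fold of 9.74 and a −log10 q of 41.9. Others past the end of a gene were at Rps14 with 7.14, Rpl6 with 7.27 and Rpl35 with 6.52. In the genes, Rps15a had 9.74, Rps9 had 9.40 and Rpl32 had 8.04.

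Input was sparse at these peaks. The 1 kb around the summit held a median of 15 input read ends, from 0 to 49, for the peaks in the genes and of 9, from 0 to 114, for those past the 3′ end, against 75 for the peaks nearest to a TSS. The median GC was 50.6 and 51.7%. The peak past the end of Rpl6, with a fold of 7.27, had 0 input read ends around its summit. Below 30 read ends the median fold of other coding genes with a peak within 1 kb of a TSS was 4.67. Fold enrichments of peaks in or past other coding genes are not given. The part of sparse input in the fold enrichments of the peaks in and past members was not tested. Processed pseudogenes of ribosomal protein genes share exon sequence with them. All 592 input read ends inside the 41 peaks and all 601 inside the 28 peaks had a mapping quality of at least 20, which says nothing of the ChIP reads, whose positions were not analysed here.

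The summits of promoter peaks lay downstream of the start site. Relative to the TSS of full-length coding transcripts 68 of 75 summits were downstream, which is 90.7%. Of 4365 other coding genes with such a peak 3546 were downstream, 815 upstream and 4 at the TSS, or 81.3% downstream of those off the TSS, with exact binomial 95% intervals of 81.7 to 96.2% and 80.1 to 82.5% for counting error. The median position was 198 bp downstream, with an interquartile range of 119 to 282.5 bp, against 205 bp in other coding genes. A position of 100 to 400 bp downstream was found for 49 of 75 members and 57.0% of other coding genes. Measured from the nearest of all annotated start sites, 56 were downstream, 18 upstream and 1 at the TSS, or 75.7% of those off the TSS, against 71.6% of other coding genes. Around the nearest TSS the input of members with a peak fell off on both sides and faster downstream. The median was 9, 9, 7, 4 and 3 read ends in successive steps of 100 bp upstream and 10, 10, 5, 3 and 1 downstream. The part of this in the summit positions was not tested. Of the 75 nearest peaks 53 had the summit in an exon, 20 in an intron and 2 outside the gene. Exons of every annotated transcript were counted, so that genes such as Rpl9 and Rps13 were exon throughout. No like count is given for other coding genes, so the exon share is not a result about members.

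**Figure D5:**
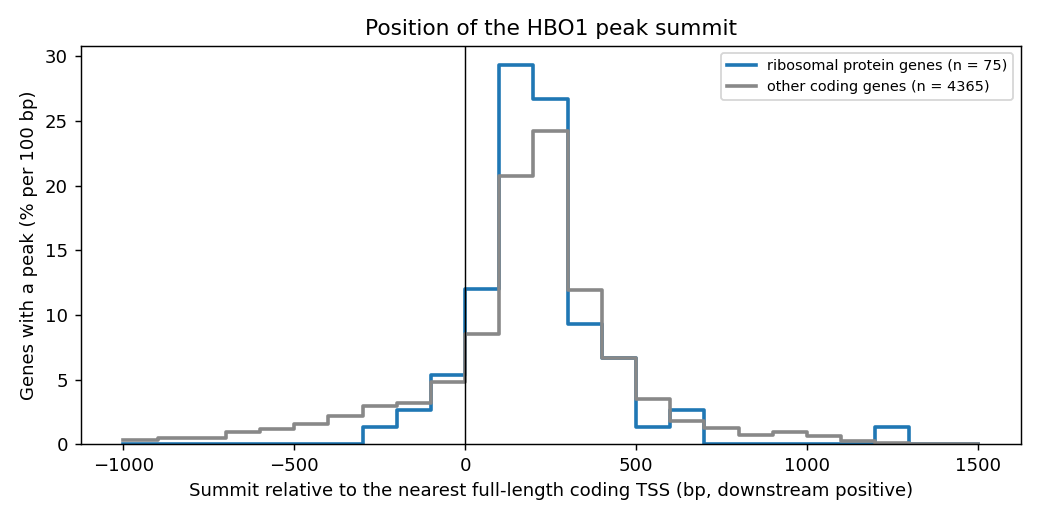
Position of the HBO1 peak summit relative to the nearest full-length coding TSS in 100 bp steps (x axis, downstream positive) as a share of genes with a peak (y axis, %), for ribosomal protein genes (blue) and other protein-coding genes (grey). Both lines are highest between 100 and 300 bp downstream, with 29.3% and 26.7% of members in these steps.

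The pyrimidine tract shown above was common in members whether or not they had a peak. A C followed by at least 4 pyrimidines began within 5 bp of a TSS in 65 of the 86 genes, or 75.6%. The share was 45.4% of all protein-coding genes and 49.7% of those of like GC. Any annotated TSS could hold the tract, and members had a median of 6 distinct TSSs against 3 in other coding genes. The shares were not matched for this number, whose part in the difference was not tested. Of the 65 with a tract 57 had an HBO1 peak, and of the 21 without one 18 had a peak. Among other coding genes with a tract 26.5% had a peak, and among coding genes of like GC and tract state 23.0%. Measured from the tract, 52 of 57 summits were downstream, at a median of 198 bp and a range of −1147 to 2917 bp. No like share is given for other coding genes with a tract, so this share is not a result about members. At Rps27, Rps19 and Rps25 the summit was 190, 143 and 157 bp downstream of the tracts printed above.

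Other promoter sequences were counted on both strands from 250 bp upstream to 50 bp downstream of the outermost coding TSS. The ETS core CCGGAAG was in 23 of 86 member promoters, or 26.7%, against 11% of all coding promoters and 14.8% of those of like GC. The YY1 core AAGATGG was in 11, or 12.8%, against 6.26% and 6.82%. The GC box GGGCGG was in 40, against 43.8% of all coding promoters and 50.4% of those of like GC. The TATA box TATAAA was in 9, or 10.5%, between the 12.6% of all coding promoters and the 9.13% of those of like GC. The E-box CACGTG was in 10, or 11.6%, against 7.72% and 9.03%. The octamer ATGCAAAT, a site of Oct1 and Oct4, was in none of the 86, against 1.6% of all coding promoters and 1.36% of those of like GC. With shares this low, few or no matches would be found in 86 promoters, so this is not a result about members. The MORE, the site of Oct4 dimers near which the paper reports HBO1, was not counted. Beside the 87.2% of all members with a peak, a peak was found at 22 of the 23 members with the ETS core, 10 of 11 with the YY1 core, 34 of 40 with the GC box, 7 of 9 with the TATA box and 9 of 10 with the E-box. A match shows the letters only and not that a factor is bound.

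Ribosomal protein genes often hold small nucleolar RNAs in their introns. Of the 30 members with an annotated one 27 had a peak, with a median fold enrichment of 4.11. Of the 56 without one 48 had a peak, with a median of 3.13. Both counts are near the 87.2% of all members, where 21.7% of all protein-coding genes had a peak. Rpl3 hosts 2 and Rpl4, with a fold enrichment of 4.24, hosts 5.

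In the other gene lists of the translation machinery the share with a peak was between that of ribosomal protein genes and that of genes of like GC. Among ribosomal proteins under other symbols, Rack1 had a peak with a fold enrichment of 3.79, while the nearest peak to Fau was at 2994 bp. Of 20 other genes listed for TOP mRNAs 16 had a peak, or 80%, against 27.8% of like-GC genes, with a median fold enrichment of 3.32. Among them Eef1a1, the elongation factor that delivers tRNAs, had 5.88 with a −log10 q of 75.6, Npm1, a nucleolar chaperone, had 4.28, and Tpt1 had 3.18. Of 70 translation factor genes, taken by Eif and Eef symbols with Etf1 and Gspt1 and so including kinases, methyltransferases and binding proteins of the factors, 41 had a peak, or 58.6%, against 27.7%, with a median fold enrichment of 2.69. Of 44 ribosome biogenesis genes 21 had one, or 47.7%, against 23.3%, with 2.77.

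Mitochondrial ribosomal protein genes, whose products form the separate ribosome of the mitochondrion, had the lowest share with a peak among these lists. Of 78, 31 had a peak, or 39.7% with an exact binomial interval of 28.8 to 51.5%, against 22.4% of like-GC genes. Their median fold enrichment was 2.32 and their median −log10 q 7.55, against 3.31 and 17.1. A −log10 q of at least 10 within 1 kb was found at 10 of the 78, or 12.8%, against 7.83% of like-GC genes. The share was much higher in the other genes listed for TOP mRNAs, with 14 of 20, or 70%, against 9.75%. It was 32.9% against 9.84% in translation factor genes and 18.2% against 8.13% in ribosome biogenesis genes. Mrpl35, with 9.50, had the highest fold enrichment among the mitochondrial ribosomal protein genes.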

How the data were processed

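Paired reads were aligned by the authors to mm10 using Novoalign (4.03.01 in their notes), and MACS2 was run by them with q 0.005 and a maximum gap of 100. How the 2 ChIP samples were combined, and whether duplicates were removed, is not given in the sources used here. The deposited peak list gives the authors' fold enrichment, a ratio to local background, with a −log10 q, a −log10 p, a score and a summit offset. In the deposited input there are 31973678 read ends, each with the aligner's mapping quality score. The authors' −log10 p and peak score were not used.

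Distances were taken from peak edges to TSSs of GENCODE vM21, with sequence from GRCm38, whose chromosome lengths hold all peaks. The share in genes of like GC (or length, or other class) is the percent of nonmember coding genes with a peak in each class, weighted by the members in it. GC and input at a gene refer to the 1 kb around its outermost TSS. Full-length coding transcripts are those of the GENCODE basic set. The symbols with -ps were read as any ending in -ps with or without a digit. Python 3.11.15, numpy 2.4.6, scipy 1.17.1, pandas 2.3.3 and matplotlib 3.10.9 were used. The counting was tested on simulated data. With 1 peak list no replicate could be left out and no p-value was computed. The members and lists were chosen with earlier results of these data known. The genes named are those with the 10 highest fold enrichments, the 5 highest −log10 q values, the 5 widest peaks or more than 1 peak, standard members without a peak, members next to the distance limit and members on chromosome 3 from 100 to 140 Mb. Others were added for their known roles. Some genes that this rule names are not reported here.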

Additional observations from a re-analysis of the deposited data

How the results depend on the processing

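The share of ribosomal protein genes with a peak was 72.1% where a TSS had to lie inside the peak, 74.4% for peaks of −log10 q 10 or more and 93.5% without paralogs and lookalikes, and stayed inside the interval of the reported share under the other alternatives, which included other distances, other start sites and the members with -ps symbols. Its difference from like-GC genes was 72.1 percentage points without paralogs and lookalikes and between 58.9 and 68.2 otherwise. The median fold enrichment was 4.15 with the strongest peak within 1 kb. The share of summits downstream was 98.6% from the outermost TSS and, under alternatives added after the data were seen, 90.7% from full-length coding TSSs and 91.2% from the tract. All other start sites of a gene lie downstream of its outermost TSS, so the choice of that TSS in part fixes a high share. No like share of other coding genes is given from the outermost TSS or the tract. The share with a tract was 40.7% for tracts exactly at a TSS and 57.0% for 7 or more pyrimidines after the C, against 8.52 and 14.2% of all coding genes. Here too any annotated TSS could hold the tract, and the number of TSSs was not matched. The share with a peak in the gene, itself added after the data were seen, was 23.3% with the TSSs of all transcripts, 23.3% with a −log10 q of at least 10 and 16.3% at over 2 kb from TSSs, against 3.20, 1.15 and 2.59% of like-length genes. Also added were the tract with GC, and leaving out chromosome 3 from 100 to 140 Mb or members whose peak is near another coding TSS, which moved no share beyond that interval. No paired analysis was possible because 1 peak list stands for both ChIP samples. No value has a replicate error.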
